A study of Mus musculus with 6 samples.

Results

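The cytosolic ribosomal proteins are the proteins that, with ribosomal RNA, build the large and small subunits of the ribosome outside mitochondria. Their genes were taken by symbol: every protein-coding mouse gene whose symbol begins with Rpl or Rps and a number, together with Rplp0, Rplp1, Rplp2 and Rpsa. This gave 86 of the 29370 genes in the deposited matrix, after 240 named pseudogene and other non-coding rows and 9 rows of Rps6k kinase genes were left out. The rule also takes in Rps19bp1, which encodes a binding partner of a ribosomal protein and not a ribosomal protein. The labels describe 3 palmitate libraries, made from cells held for 48 h in complete T cell medium with 100 µM of this saturated fatty acid, and 3 control libraries of the same time point. All 6 libraries came from CD8+ T cells of wild-type mice, taken from the pancreas, spleen and lymph nodes. What the control medium contained in place of palmitate, and the strain and age of the mice, are not given in the sources at hand. Whether the 3 libraries of a group were separate mice or cultures is likewise not stated, and every p-value below reflects variation among these libraries alone, possibly technical.

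A cell needs ribosomal proteins in near-equal numbers, since each ribosome holds about a single copy of most of them and surplus protein is degraded. Most of their mRNAs start with a run of pyrimidines, the terminal oligopyrimidine (TOP) motif, through which mTORC1 and the RNA-binding protein LARP1 switch their translation with nutrients and growth signals. T cells enlarge their ribosome pool when they are activated and shrink it as they return to rest.

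Start sites of 66 of the 86 genes were found in RefSeq's mouse promoter table, which covers 27025 genes on build GRCm38.p6, an earlier build than the GRCm39 of the deposited files. The windows below run from 40 bases before to 20 bases after the annotated start. Rps27 and Rps27rt are shown because this near-identical pair carried the largest change, and their capitals mark a stretch of 19 bases common to both.
Rps27 (chr3:90213629-90213688, minus strand): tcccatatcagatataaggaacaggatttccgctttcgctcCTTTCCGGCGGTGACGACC
Rps27rt (chr9:114982720-114982779, minus strand): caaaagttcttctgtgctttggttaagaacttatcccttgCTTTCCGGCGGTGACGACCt
Rps9, Rps6 and Rpl13a are shown as a gene called higher, a gene whose level hardly moved and the gene called lower, with the longest run of C and T near the start in capitals.
Rps9 (chr7:3704001-3704060, plus strand): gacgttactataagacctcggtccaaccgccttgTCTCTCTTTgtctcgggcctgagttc
Rps6 (chr4:86857348-86857407, minus strand): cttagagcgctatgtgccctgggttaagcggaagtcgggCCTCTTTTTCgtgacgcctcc
Rpl13a (chr7:45128726-45128785, minus strand): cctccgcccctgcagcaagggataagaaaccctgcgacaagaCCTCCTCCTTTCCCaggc
The common stretch begins at the annotated start in Rps27rt and 1 base after it in Rps27. In the 250 bases before the starts, the longest stretch common to both genes was 10 bases. A run of at least 8 pyrimidines within 25 bases of the start was present in 33 of the 66 genes and in 22.2% of 26959 other genes. Here and for the motifs that follow, a gene was counted if any promoter listed for it had the match. The windows above show the first promoter listed. Over the whole 300 bases, from 250 before to 50 after the start, CTTTCC on either strand was in 54.5% of the members and 29.3% of the others. CCGGAAG, the core of sites that ETS factors such as GABP bind, was in 39.4% of the members and 9.86% of the others on either strand, and TATAAA in 10.6% and 15.7%. CTTTCC and the pyrimidine runs can overlap, and a match is a match of letters only.

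Ribosomal protein mRNA was among the most abundant RNA of these cells. Per length, in TPM (Salmon's abundance corrected for transcript length, scaled to the same total in every library) summed over a gene's transcripts, 75 of the 86 members had a mean above 1000, and the median member stood at 2798 TPM. Rps27 averaged 8290 ± 1332 TPM in palmitate libraries and 6249 ± 416 TPM in control libraries (SD, n = 3 each). Rpl13a followed with 7580.0 ± 80.3 and 6789 ± 448 TPM, Rps25 with 7152 ± 486 and 6987 ± 406 TPM, and Rps24 with 7329 ± 858 and 6765 ± 73.9 TPM. At the other end of the members that passed the filter on low counts, Rpl39l had 6.01 ± 0.917 TPM in palmitate libraries and 7.24 ± 1.23 TPM in control libraries, and Rps19bp1 had 46.8 ± 3.89 and 50.03 ± 2.23 TPM.

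Taken as a sum, the family held a slightly larger share of the RNA in palmitate libraries. Its share of gene counts was 10.2%, 10.8% and 11.1% in palmitate libraries 1 to 3, and 9.74%, 8.67% and 9.51% in control libraries 1 to 3. All palmitate libraries lay above all control libraries, with means of 10.7% ± 0.468 and 9.31% ± 0.563 (SD, n = 3 each), a ratio of 1.15. The exact two-sided permutation test gave p = 0.10, the smallest value that 3 against 3 libraries can give. As a share of TPM, the family took 27.7%, 28.3% and 29.1% in palmitate libraries and 26.1%, 24.6% and 25.9% in control libraries, again without overlap (exact permutation p = 0.10).

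The separation between groups depended on how libraries were scaled. After TMM scaling, which sets library sizes so that most genes do not differ, the summed CPM (counts scaled to a common library total) were 97720, 105199 and 110469 in palmitate libraries and 96828, 90553 and 98407 in control libraries. Palmitate library 1 then lay below control library 3, the means were 104463 ± 6406 and 95263 ± 4154 CPM (SD, n = 3 each), and the exact permutation test gave p = 0.20. The median member stood 0.03, 0.13 and 0.21 above the control mean (log2) in palmitate libraries 1 to 3, and at 0.04, −0.08 and 0.04 in control libraries 1 to 3. Control library 2 was the low one, with 6 of 83 members above the control mean, and palmitate library 1 lay level with the control libraries.

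**Figure D1:**
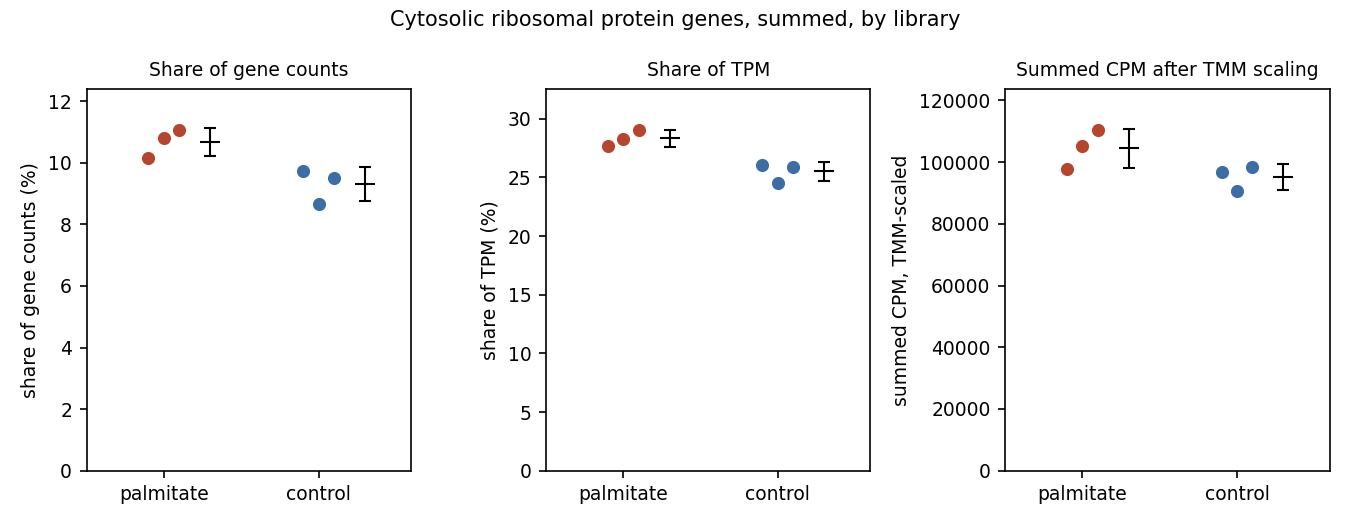
Summed level of the 86 ribosomal protein genes in each library (points; palmitate left, control right), as percent of gene counts, percent of TPM and TMM-scaled CPM, with mean and SD (bars, n = 3 each). The groups are apart in the first and second panels, and overlap in the summed CPM, where palmitate library 1 (97720) lies under control library 3 (98407).

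Some features of the libraries differed between the groups and others overlapped, and their part in the summed level was not tested. Depth ran from 16724588 to 24777611 gene counts in palmitate libraries and from 26042768 to 29362276 in control libraries. Mitochondrially encoded genes took 0.958% to 1.14% and 0.899% to 1.07% of counts. The difference between annotated and effective transcript length, which follows the fragment size, was 199 to 220 bases and 205 to 214 bases, with the same mean of 209 in both groups. All 6 CD8 T cell markers were called higher, and their summed CPM was 1360 to 1504 in palmitate libraries and 861 to 1132 in control libraries. Of 5 plasma cell markers, which summed to 259 to 296 CPM in palmitate libraries and 163 to 235 CPM in control libraries, 2 were called higher. These were Jchain, at 9.76 ± 2.64 and 1.78 ± 0.651 CPM (log2 fold change 2.45), and Igha, at 17.4 ± 9.69 and 1.88 ± 0.942 CPM (3.19), while most of the sum was Ighm, which was not called (243 ± 10.3 and 191 ± 35.2 CPM; SD, n = 3 each). Of the 5, 4 had log2 fold changes above 0. Sdc1 went the other way, at 3.22 ± 0.449 and 4.32 ± 0.808 CPM (−0.43, adjusted p = 0.172), with all palmitate libraries below all control libraries. Of 4 erythroid markers, 1 was called higher (5.55 to 11.2 CPM against 1.41 to 3.89 CPM). The 5 B cell markers summed to 12.4 to 20.8 CPM and 11.4 to 13.2 CPM, with 1 called higher. Markers of CD4 T cells (0.716 to 1.38 against 0.482 to 0.802 CPM), macrophages (3.40 to 4.05 against 2.33 to 4.09 CPM) and NK cells (0.726 to 2.15 against 0.654 to 1.52 CPM) were low, and none was called, with 1 of 3, 1 of 5 and 2 of 2 genes tested. Cd4 itself, not tested, had 0.565, 0.550 and 0.298 CPM in palmitate libraries and 0.241, 0.120 and 0.141 CPM in control libraries, without overlap. Pancreatic acinar markers summed to 1.57 to 2.62 CPM in palmitate libraries and 1.20 to 1.94 CPM in control libraries, with 1 of 5 genes at 0, and fibroblast markers to 0.0403 to 0.354 and 0 to 0.160 CPM. Fewer cells of a type and less RNA per cell cannot be told apart in bulk RNA.

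Gene by gene, few members passed the test. Of the 86 members, 83 passed the filter on low counts, and 5 of them were called higher and 1 lower at an adjusted p under 0.05. Over all 12068 genes tested, 22.9% were called, 11.1% higher and 11.7% lower. The 5 called higher were Rps27rt, Rps29, Rps27, Rps9 and Rpl32, and the 1 called lower was Rpl13a. The log2 fold change lay within 0.2 of 0 for 55 of the 83 members, against 41.4% of all genes. All palmitate libraries lay above all control libraries for 20 members and below for 1, against 21.6% and 21.2% of all genes.

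The small differences mostly pointed the same way. The median log2 fold change of the members was 0.13, against 0.02 over all genes tested, and it was above 0 in 70 of 83 members, against 52.1% of all genes. With the replicate number as a block, 16 members were called higher and 1 lower, where 33.1% of all genes were called, 16.5% higher and 16.6% lower. The 11 added by the block were Rplp0, Rplp1, Rplp2, Rps7, Rpsa, Rps15, Rps19, Rps28, Rpl10a, Rpl18 and Rpl37a, with block adjusted p from 0.0130 to 0.0498. For Rpl10a the matrix held 17.2% of its reads, and the sum over all its transcripts gave 0.10 (adjusted p = 0.475). For Rpl18 it held 90.6%, and the log2 fold change was 0.27 in the matrix and −0.07 in the sum (adjusted p = 0.709). Rps7 and Rpsa, also partly counted, are described below. Same-numbered libraries deviated together across all genes (correlations of 0.32, 0.21 and 0.19), but over the members alone the correlations were 0.46, 0.05 and −0.52. The count of 5 called higher without the block also changed when single libraries were left out. It was 3, 5 and 1 without palmitate libraries 1, 2 and 3 in turn, and 10, 1 and 0 without control libraries 1, 2 and 3. The share of all genes called in each of those fits is not given here, so the change cannot be read as particular to the members.

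**Figure D2:**
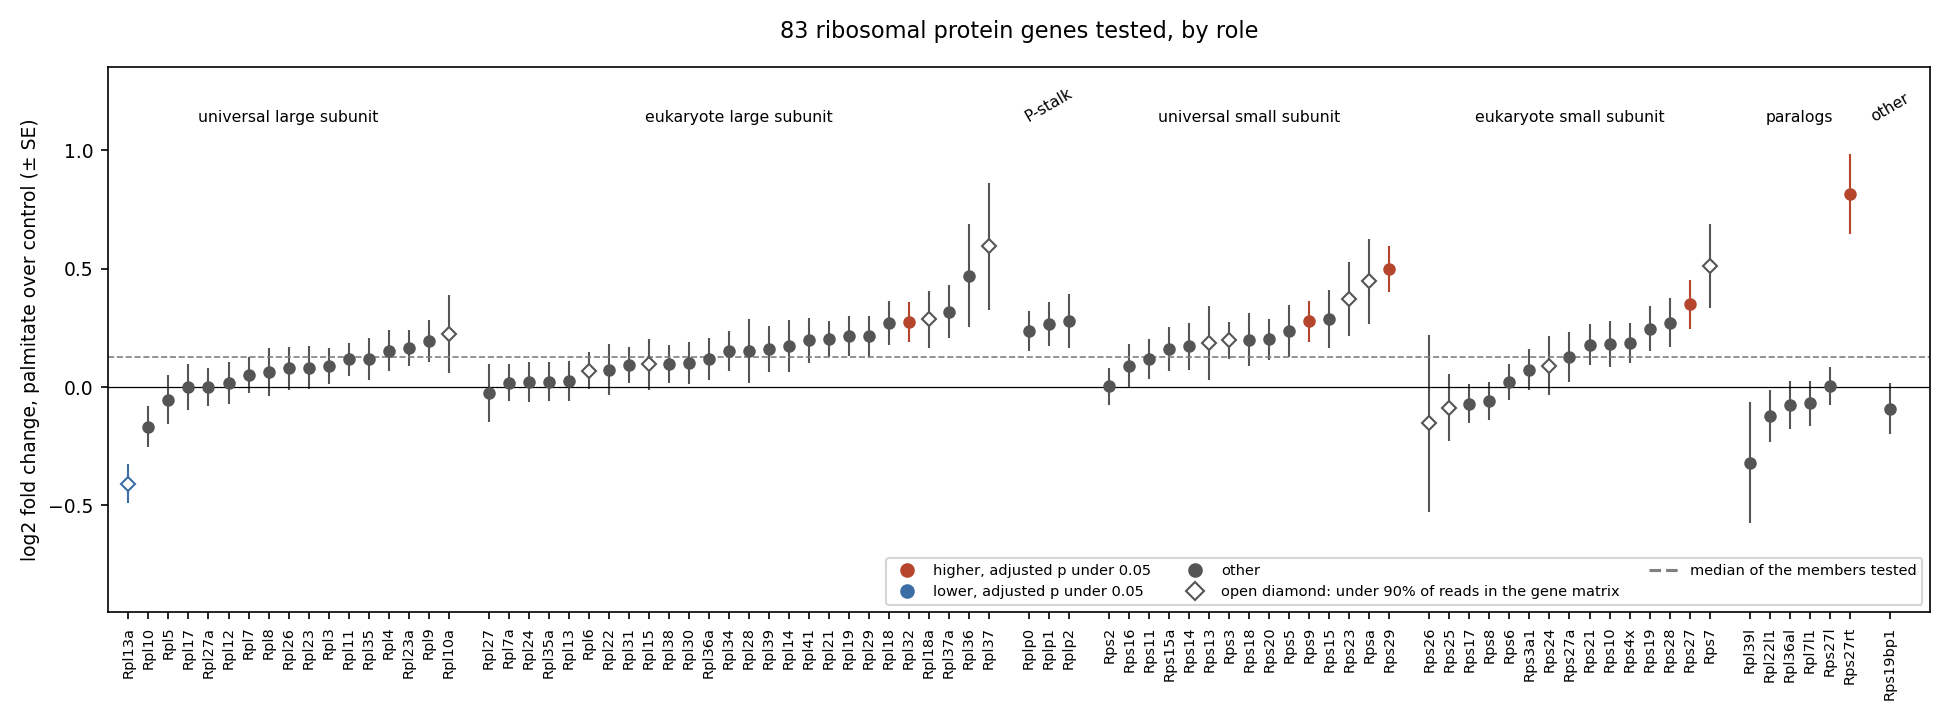
Log2 fold change (palmitate over control, vertical axis) with SE for each of the 83 members tested, grouped by role along the horizontal axis. Most points lie between 0 and 0.25 around the median of 0.13 (dashed line), and the members called higher and lower stand in colour.

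Among the 17 large subunit proteins shared with bacteria and archaea, none was called higher and 1 was called lower, with a median log2 fold change of 0.08. Rpl5 and Rpl11, which carry the smallest ribosomal RNA into the large subunit and, when in excess, bind the p53 regulator Mdm2, were not called. Rpl5 had 323, 414 and 328 CPM in palmitate libraries and 364, 361 and 380.4 CPM in control libraries (log2 fold change −0.05 ± 0.10, SE; adjusted p = 0.733). Rpl11 had 943, 957 and 974 CPM against 927, 866 and 859 CPM (0.12 ± 0.07, adjusted p = 0.249). The groups overlapped for Rpl5 and were narrowly apart for Rpl11. Rpl10, which joins the large subunit last, had 508, 503 and 521 CPM in palmitate libraries and 598, 508 and 615 CPM in control libraries (−0.17 ± 0.09, adjusted p = 0.191). Its palmitate values sat at the bottom of the control range. Rpl3 and Rpl7, of the subunit's core, had log2 fold changes of 0.09 (adjusted p = 0.418) and 0.05 (adjusted p = 0.662).

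The 26 large subunit proteins found in eukaryotes or in eukaryotes and archaea gave 1 call, Rpl32, and a median of 0.15 in the matrix, with 25 of 26 above 0. In the sums over all transcripts, the median of these 26 was 0.08, with 18 above 0 and none called. Rpl32 had 1852, 2096 and 2068 CPM in palmitate libraries and 1729, 1545 and 1698 CPM in control libraries. The lowest palmitate library was above the highest control library by a small margin. The log2 fold change was 0.27 ± 0.08 (SE), with an adjusted p of 0.0470, and the means were 2005 ± 134 and 1658 ± 98.3 CPM (SD, n = 3 each). That call was lost in the sums over all transcripts (0.24, adjusted p = 0.0796) and in 5 of the 6 fits that left out 1 library, and held without palmitate library 1 (0.32, adjusted p = 0.0452). Over the 16 other settings, the adjusted p for Rpl32 ran from 0.0107 to 0.188.

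The 3 P-stalk proteins form the flexible arm that recruits elongation factors to the large subunit. Rplp0, its base, had 2371, 2306 and 2663 CPM in palmitate libraries and 2192, 1948 and 2088 CPM in control libraries. Rplp1 had 528, 527 and 594 CPM against 478, 409 and 483 CPM. Rplp2 had 325, 309 and 387 CPM against 302, 243 and 296 CPM. In all 3 genes every palmitate library exceeded every control library, and the log2 fold changes were alike, at 0.24, 0.27 and 0.28. They missed the threshold (adjusted p = 0.0803, 0.0681 and 0.112) and passed it with the replicate block (adjusted p = 0.0411, 0.0226 and 0.0243). Over all settings run, the adjusted p ran from 0.0390 to 0.354 for Rplp0, from 0.0226 to 0.269 for Rplp1 and from 0.0243 to 0.324 for Rplp2.

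The 15 small subunit proteins shared with bacteria and archaea all had log2 fold changes above 0 in the matrix, with a median of 0.20 and 2 called higher, Rps29 and Rps9. In the sums over all transcripts, 13 of the 15 were above 0, with a median of 0.16. Rps29, a short zinc-binding protein of the small subunit's head, had 952, 835 and 1009 CPM in palmitate libraries and 709, 599.9 and 667 CPM in control libraries. The groups were well apart, at 932 ± 88.9 and 659 ± 54.9 CPM (SD, n = 3 each). The log2 fold change was 0.50 ± 0.10 (SE), with an adjusted p of 0.0118, and was 0.50 (adjusted p = 0.0111) in the sums over all transcripts. The call was lost without control library 3 (0.51, adjusted p = 0.0585) and held without each of the other 5 libraries. Over the other settings, the adjusted p of Rps29 ran from 3.69e-05 to 0.0585.

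Rps9, which lines the channel where mRNA enters the small subunit, had 1252, 1247 and 1406 CPM in palmitate libraries and 1153, 1011 and 1059 CPM in control libraries. The groups did not overlap (1302 ± 90.5 and 1074 ± 72.1 CPM, SD, n = 3 each), and the log2 fold change was 0.28 ± 0.08 (SE; adjusted p = 0.0483). It was not called in the transcript sums (0.22, adjusted p = 0.104), nor without any library other than control library 1 (0.33, adjusted p = 0.0335), and the adjusted p ran from 0.0129 to 0.223 over the settings. Rpsa, also known as a laminin receptor, had 686, 514 and 746 CPM against 579, 397 and 451 CPM. Its groups overlapped (log2 fold change 0.45 ± 0.18, adjusted p = 0.113; 0.0130 with the block, and 0.0130 to 0.279 over the settings).

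The small subunit proteins particular to eukaryotes and archaea, 15 of 16 tested, had a median of 0.13, and Rps27 alone was called. Rps6, whose phosphorylation by the S6 kinases is the usual readout of mTORC1, had 2730.1, 2947 and 3049 CPM in palmitate libraries and 2764, 2871 and 2966 CPM in control libraries. The ranges overlapped almost wholly (0.02 ± 0.08, adjusted p = 0.865). Rps27a, made as a fusion with ubiquitin, had 2005, 2522 and 2452 CPM against 2000.4, 2111 and 2278 CPM (0.13 ± 0.10, adjusted p = 0.401). Rps4x, the member with the highest CPM of those named, had 3946, 4286 and 4503 CPM against 3684, 3542 and 3962 CPM, and overlapped by a single library (0.19 ± 0.08, adjusted p = 0.139).

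Rps27, a zinc-finger protein of the small subunit, and Rps27rt, an intronless copy of it on chromosome 9, are best read together. Rps27rt had 607, 946 and 892 CPM in palmitate libraries and 493, 406 and 490.1 CPM in control libraries, the largest fold change of the family. Its log2 fold change was 0.82 ± 0.17 (SE; adjusted p = 0.0173), with means of 815 ± 182 and 463 ± 49.4 CPM (SD, n = 3 each). Rps27 had 1386, 1063 and 1223 CPM in palmitate libraries and 1004, 917 and 959.8 CPM in control libraries. Its log2 fold change was 0.35 ± 0.10 (SE; adjusted p = 0.0429), with means of 1224 ± 161 and 960.1 ± 43.7 CPM.

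Within palmitate libraries the pair mirrored each other: library 1 was lowest for Rps27rt and highest for Rps27, and library 2 was highest for Rps27rt and lowest for Rps27. The main transcripts, of 345 bases (Rps27) and 374 bases (Rps27rt), differ by 4 edits over the shorter of them, an identity of 98.8%, and 98.7% of the 31-base words of Rps27 also occur in Rps27rt. Salmon must divide reads that match both, so the split between them is uncertain. Counted as 1 gene, a setting chosen after the values were seen, the pair had 1993, 2009 and 2115 CPM in palmitate libraries and 1497, 1323 and 1450.0 CPM in control libraries. The means were 2039 ± 66.2 and 1423 ± 90.3 CPM (SD, n = 3 each), and in palmitate libraries the SD of the sum was below that of either gene. Its log2 fold change was 0.52 ± 0.08 (SE; adjusted p = 0.00544), and 0.51 (adjusted p = 0.00325) in the transcript sums. Without each library in turn the sum of the pair stayed called, at 0.46 to 0.55, with adjusted p from 0.00594 to 0.0366.

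Taken singly, the pair's calls were less steady than that of the sum. For Rps27rt they were lost without palmitate library 3 (0.74, adjusted p = 0.0588), control library 2 (0.72, 0.0590) or control library 3 (0.85, 0.0620), and the adjusted p ran from 1.08e-05 to 0.0620 over the settings. For Rps27 they were lost without palmitate library 1 (0.25, adjusted p = 0.111), palmitate library 3 (0.35, 0.108), control library 2 (0.31, 0.127) or control library 3 (0.35, 0.138). The adjusted p of Rps27 ran from 0.00890 to 0.208.

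**Figure D3:**
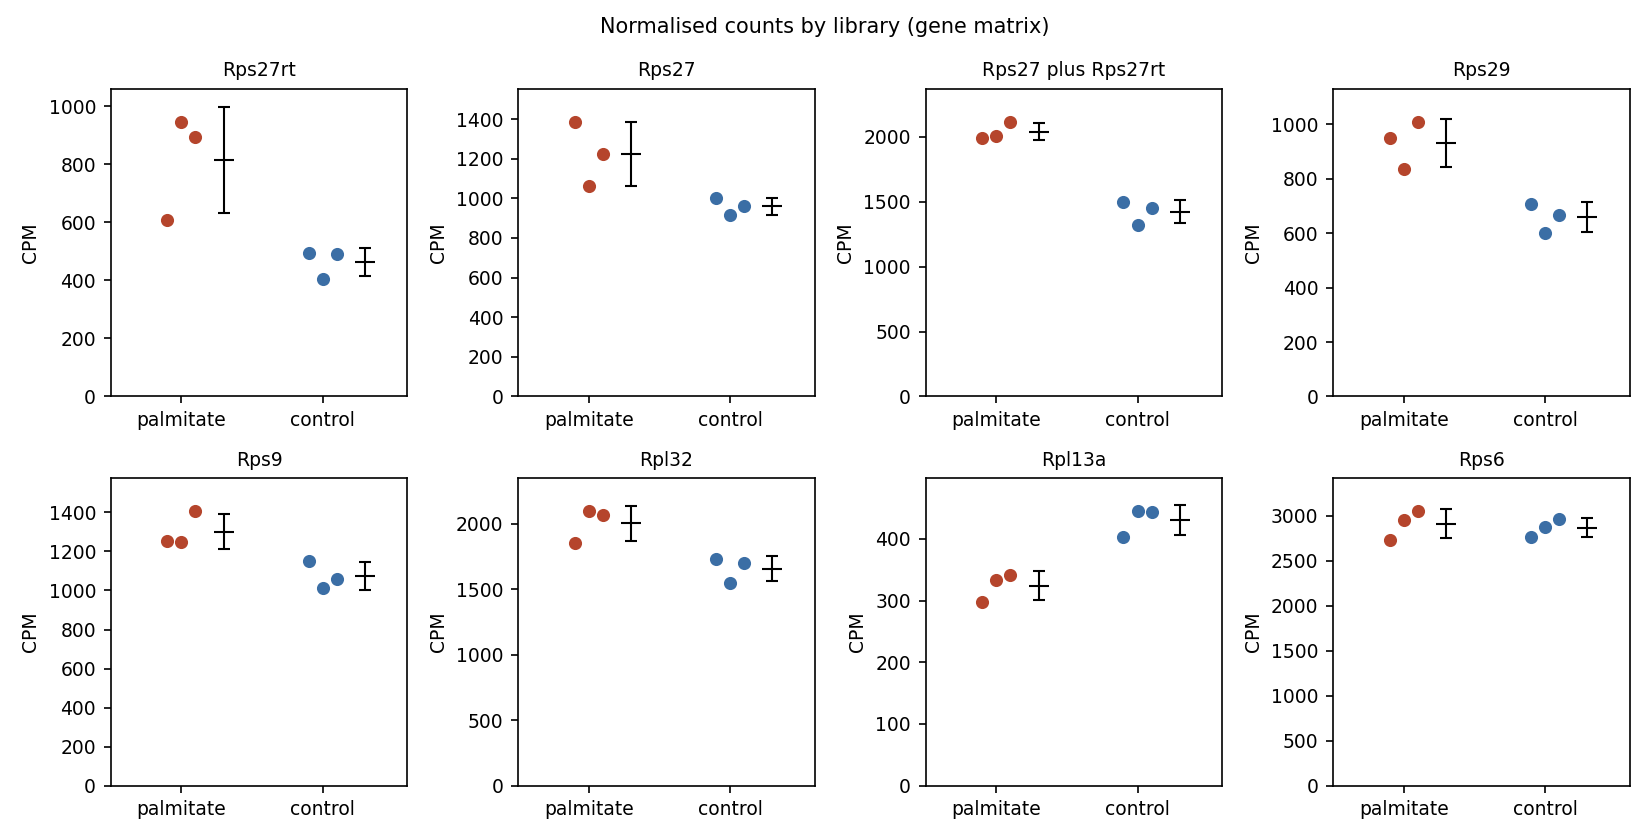
CPM in each library (points; palmitate left, control right) with mean and SD (bars, n = 3 each), for the 6 members called, the sum of Rps27 and Rps27rt, and Rps6 for comparison. The sum of the pair lies at 2039 ± 66.2 CPM in palmitate libraries and 1423 ± 90.3 CPM in control libraries, with no overlap, and the Rps6 ranges overlap almost wholly.

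The paralogs, copies of ribosomal protein genes that are expressed in some tissues or duplicate a family member, had a median of −0.07 over the 6 tested of 8, and Rps27rt was the only call. Rpl22 is needed for the development of αβ T cells in mice, and its protein represses the mRNA of its paralog Rpl22l1. Rpl22 had 703, 943 and 786 CPM in palmitate libraries and 754, 755 and 803 CPM in control libraries (0.07 ± 0.11, adjusted p = 0.656). Rpl22l1 had 446, 506 and 495 CPM against 454, 515 and 603 CPM (−0.12 ± 0.11, adjusted p = 0.456). Both pairs of ranges overlapped.

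Per length, Rpl22l1 stood at 1885 ± 94.1 TPM in palmitate libraries and 2007 ± 175 TPM in control libraries, below Rpl22 in each group (2912 ± 347 and 2726 ± 2.10 TPM). Rps27l, a copy of Rps27 that p53 induces, was at 1238 ± 70.6 and 1199.9 ± 17.8 TPM (log2 fold change 0.01, adjusted p = 0.970). Rpl36al, a copy of Rpl36a, had 1596 ± 134 and 1684 ± 84.1 TPM (log2 fold change −0.08, adjusted p = 0.622), and Rpl36a itself had 4201 ± 248 and 3818 ± 66.1 TPM (0.12, adjusted p = 0.355). For Rpl7l1 the log2 fold change was −0.07 (adjusted p = 0.626). Rpl39l, best known from testis, was the lowest member tested, at 1.33 to 2.28 CPM against 2.04 to 2.43 CPM (−0.32, adjusted p = 0.392), while Rpl39 gave 0.16 (adjusted p = 0.253). Rpl3l, a heart and muscle gene, and Rpl10l, a testis gene, held 0 to 4 counts per library and were not tested. Rps19bp1 gave −0.09 (adjusted p = 0.565).

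The deposited gene matrix did not count all reads of every member, and this touched the 1 member called lower. For 15 members it held under 90% of the reads in the same libraries' transcript tables, and for 10 of them under 50%. In each of the 15 a subset of the gene's transcripts added up to the matrix to within 0.48 reads in every library. The transcripts counted numbered 32, those left out 83, and the leading transcript was left out in 8 of the 15 genes. No left-out transcript had an Ensembl number below 197044, and no counted one had a number above 170953. No source at hand names the list of transcripts from which the matrix was made.

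Rpl13a is also known, from human monocytic cells, as a protein that leaves the ribosome to silence inflammatory mRNAs. In the matrix it had 297, 334 and 342 CPM in palmitate libraries and 402, 445 and 444 CPM in control libraries, and all palmitate libraries were below all control libraries. Its log2 fold change was −0.41 ± 0.08 (SE; adjusted p = 0.0130), with means of 324 ± 23.9 and 430.5 ± 24.3 CPM (SD, n = 3 each). That row held 17.8% of the gene's reads and equalled the single transcript ENSMUST00000150350, which took 14.1%, 14.3% and 15.2% of the gene's reads in palmitate libraries and 18.3%, 22.4% and 21.8% in control libraries.

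Most Rpl13a reads, 57.8%, were on the left-out transcript ENSMUST00000210792, annotated as a retained intron, which took 55.9%, 61.0% and 52.8% in palmitate libraries and 57.4%, 59.8% and 58.4% in control libraries. Transcript ENSMUST00000209812, annotated for nonsense-mediated decay, took 9.95%, 8.17% and 12.4% against 6.45%, 2.76% and 3.98%. Summed over all transcripts, the log2 fold change of Rpl13a was 0.11 (adjusted p = 0.323), opposite in sign to the matrix. The call in the matrix was also lost without control library 3 (−0.39, adjusted p = 0.0650), and the adjusted p ran from 7.79e-05 to 0.417 over the settings.

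Other large values of partly counted genes were also nearer 0 in the transcript sums. These genes, apart from Rpsa, Rps23, Rps24 and Rps25, were chosen after their values were seen. Rpl37 had 303, 224 and 451 CPM in palmitate libraries and 260.0, 205 and 183 CPM in control libraries, from 51.2% of its reads. Its log2 fold change was 0.59 ± 0.27 in the matrix (adjusted p = 0.162) and 0.02 in the transcript sums (adjusted p = 0.933). Rps7 had 618, 509.6 and 711 CPM against 537, 369 and 384 CPM, from 38.8% of its reads. It gave 0.51 ± 0.18 in the matrix (adjusted p = 0.0757; 0.0329 with the block) and 0.02 in the transcript sums (adjusted p = 0.913).

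For both genes palmitate library 3 was the highest, and the counted transcript took a varying part of the gene. The counted Rps7 transcript took 46.7%, 38.2% and 50.3% of its reads in palmitate libraries and 43.2%, 31.5% and 27.4% in control libraries. Rps23 gave 0.37 in the matrix, from 42.2% of its reads, and −0.07 in the sums (adjusted p = 0.121 and 0.554). Rpsa, counted to 16.6%, gave 0.18 in the sums (adjusted p = 0.150). Rps24 and Rps25, among the most abundant members per length, were counted to 47.2% and 19.5% and were not called (0.09 and −0.09 in the matrix; 0.07 and −0.02 in the sums).

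Of the 14 partly counted members tested, 9 had a higher log2 fold change in the matrix than in the sums, and 5 differed in sign (Rps23, Rpl15, Rpl6, Rps26 and Rpl13a). Rps12 was nearly absent from the matrix, with 2 to 18 counts per library, and was not tested there. Its transcripts held 6353, 7245 and 6789 TPM in palmitate libraries and 6594, 6366 and 6482 TPM in control libraries, overlapping ranges near the top of the family (log2 fold change 0.02, adjusted p = 0.889).

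**Figure D4:**
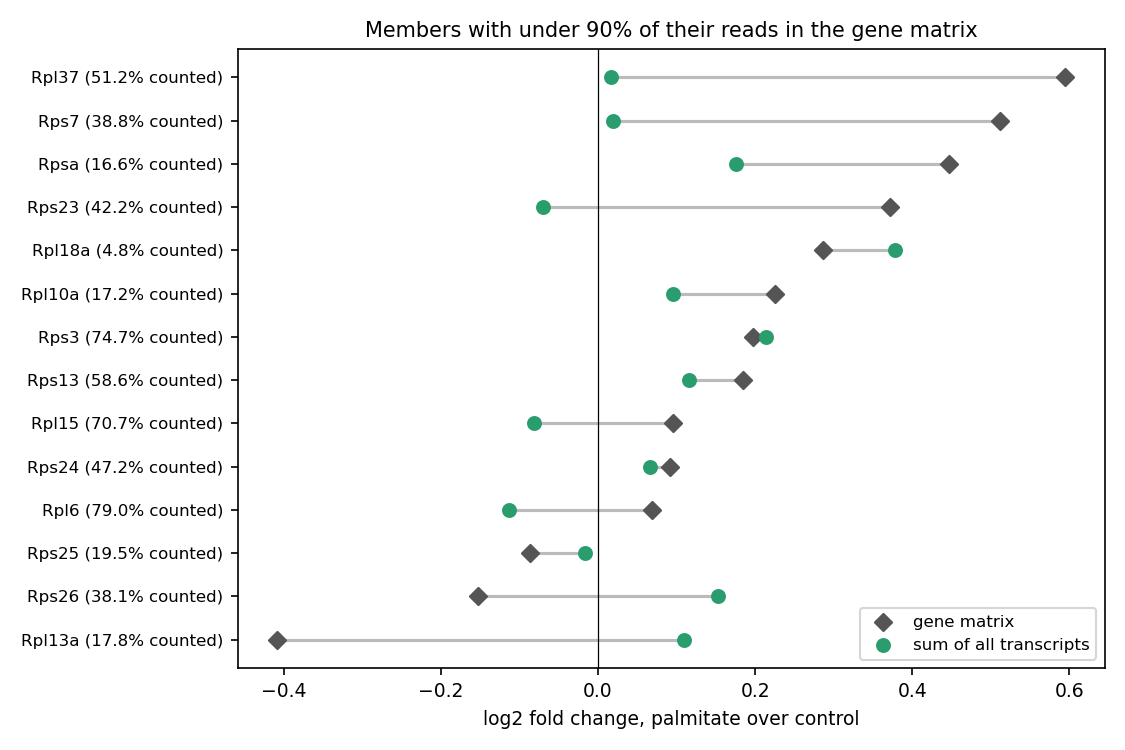
Log2 fold change (palmitate over control, horizontal axis) of the 14 members tested with under 90% of their reads in the gene matrix, from the matrix (diamonds) and from all transcripts (circles), with the percent of reads counted beside each symbol. The matrix values run from −0.41 to 0.59, and the circles lie closer to 0 for Rpl37, Rps7, Rps23 and Rpl13a.

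Summed over all transcripts, with length offsets, 84 members were tested and 3 were called higher (Rps27rt, Rps29 and Rps27), and none lower, where 19.6% of all genes were called, 9.24% higher and 10.4% lower. The median log2 fold change was 0.08, with 62 of 84 members above 0, against 52.9% of all genes. For the 64 tested members whose reads were counted in full (98% or more), the matrix gave 4 called higher, none lower and a median of 0.12. By transcript type, protein-coding transcripts held 84.6%, 83.5% and 85.9% of the family's TPM in palmitate libraries and 84.0%, 83.8% and 83.1% in control libraries. Transcripts annotated for nonsense-mediated decay held 2.71%, 2.71% and 2.86% against 2.65%, 2.66% and 2.57%, and processed transcripts 1.62%, 1.76% and 1.63% against 1.85%, 2.39% and 2.38%. The groups did not overlap for these last types and overlapped for retained introns (9.60% to 11.997% against 11.2% to 11.9%).

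The shortest mRNAs had the highest median difference of 3 length classes. The 7 members whose transcripts averaged under 400 bases (Rps27rt, Rps29, Rpl36, Rps27, Rps28, Rps21 and Rpl38), a class chosen after the values were seen, had a median log2 fold change of 0.35, and 3 were called higher, where 11.1% of all genes were. The 3 were Rps29 and the near-identical pair Rps27 and Rps27rt, whose calls are not independent because reads matching both are divided between them. The 38 tested members of 400 to 700 bases had a median of 0.14, and the 38 of 700 bases or more a median of 0.11. Across the 83 members, log2 fold change and log2 length had a Pearson r of −0.24 and a Spearman rho of −0.24. For the 64 with full counts r was −0.35 (rho −0.33), and −0.29 (rho −0.30) without Rps27rt. Over 12015 genes tested r was 0.03 (rho 0.07), but with effective length in place of transcript length, so the measures differ. These are relations across genes of the same 6 libraries, and genes are not independent replicates. The share of a member's 31-base words found in other genes, with a median of 61.4%, had an r of 0.13 (rho 0.08) with its fold change.

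**Figure D5:**
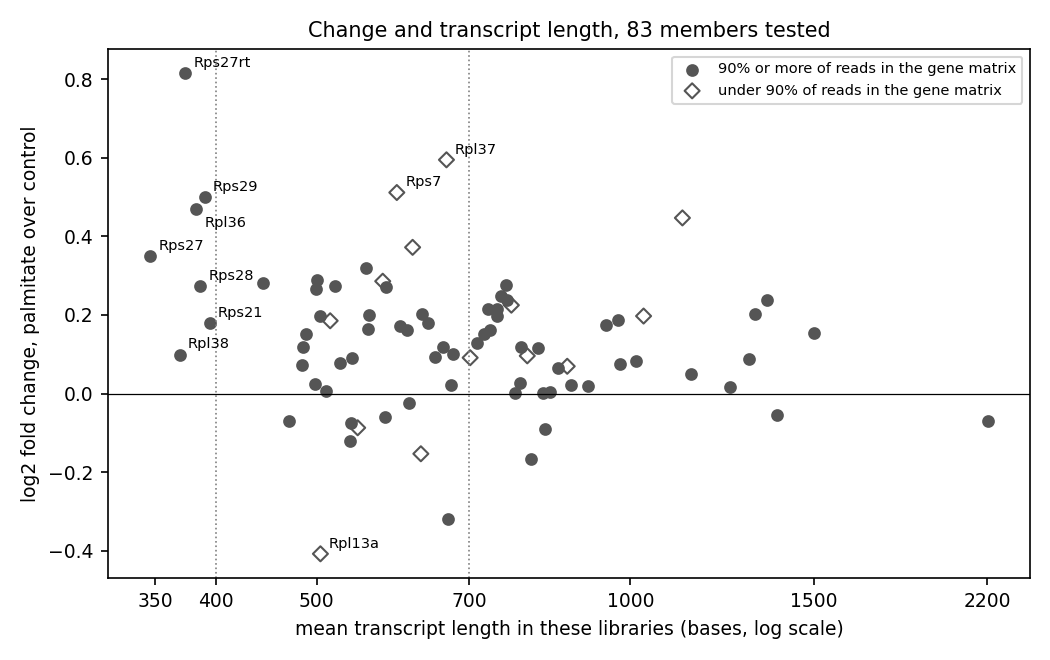
Log2 fold change (palmitate over control, vertical axis) of the 83 members tested against mean transcript length in bases (log scale), with dotted lines at 400 and 700 bases and open diamonds for members with under 90% of their reads in the gene matrix. The 7 members under 400 bases lie between 0.10 and 0.82, with a median of 0.35.

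The difference in the sum was spread over many genes. Of the 9200.4 CPM by which the palmitate mean exceeded the control mean, the 5 genes called higher made up 15.9% and the 10 largest contributors 37.0%. With each library scaled to its summed ribosomal protein counts, the median member moved to −0.01 and the median of all genes to −0.11. Relative to the family in this way, Rps27rt (0.68, adjusted p = 0.00949) and Rps29 (0.37, 0.0253) were called higher, and Rpl13a (−0.54, 0.00605, from the partly counted row) and Rpl10 (−0.30, 0.0377) lower. Over the settings run, the adjusted p of Rpl10 went from 0.0377 to 0.470, and no other setting called it.

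Genes that work with the ribosomal proteins were described from lists chosen with earlier results of these data known, and their counts stand against the 11.1% of all genes called higher and 11.7% called lower. Among ribosomal genes outside the naming rule, Fau, made as a fusion with a ubiquitin-like protein, and the scaffold Rack1 had log2 fold changes of 0.32 and 0.10 and were not called (adjusted p = 0.0568 and 0.357). With the block, Fau was called (adjusted p = 0.0151), and, counted to 25.4%, it gave 0.04 in the transcript sums. Of 17 other TOP mRNAs in the matrix, 2 were called higher and 2 lower, shares near those of all genes, with a median log2 fold change of −0.11. The elongation factors Eef1g (0.27, adjusted p = 0.0399) and Eef2 (0.28, 0.0421) were higher. The nascent-chain factor Naca (−0.27, 0.0461) and the nucleolar protein Npm1 (−0.32, 0.0490) were lower. In the transcript sums Eef1g (adjusted p = 0.0654), Eef2 (0.0691) and Npm1 (0.0561) were not called.

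Of 16 genes of mTORC1 signalling and LARP1, 2 were called higher, near the share of all genes, and 4 lower, with a median log2 fold change of −0.10. In the transcript sums the median of this list was −0.02. Rptor, the mTORC1 scaffold, had 40.9, 42.0 and 39.3 CPM in palmitate libraries and 32.4, 28.6 and 26.3 CPM in control libraries, with no overlap (0.49 ± 0.10, adjusted p = 0.0128). Tsc1, a brake on mTORC1, was also called higher (0.58, adjusted p = 0.0209). The S6 kinase gene Rps6kb1 had 132, 122 and 129 CPM against 156, 161 and 157 CPM, likewise without overlap (−0.31 ± 0.06, adjusted p = 0.0135), and was not called in the transcript sums (−0.21, adjusted p = 0.0793). Eif4e, the cap-binding factor, was lower (−0.46, adjusted p = 0.0156, from 57.9% of its reads), as were Larp1 (−0.31, 0.0303) and Larp4 (−0.44, 0.0473; adjusted p = 0.0778 with the block).

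Of 8 chaperones that escort single ribosomal proteins, 1 was called higher and 3 lower, with a median of −0.11. Heatr3, which carries Rpl5 into the nucleus, had 153, 179 and 172 CPM in palmitate libraries and 236, 244 and 239.8 CPM in control libraries. The groups were far apart (−0.51 ± 0.08, adjusted p = 0.00550), and the call held without each of the 6 libraries. Pdcd2l (−0.38, adjusted p = 0.0275) and Ltv1 (−0.31, 0.0477; adjusted p = 0.0531 in the transcript sums) were also lower, and Aamp was higher (0.33, 0.0212). Together the related lists gave 5 genes called higher and 9 lower, the first near the 11.1% of all genes called higher. Leaving out palmitate libraries 1, 2 and 3 in turn gave 3, 1 and 1 higher and 3, 4 and 2 lower, and leaving out control libraries 1, 2 and 3 gave 8, 1 and 0 higher and 12, 3 and 1 lower. The share of all genes called in these fits is not given here. Rptor and Eif4e stayed called in 5 of these 6 fits and Rps6kb1 in 4, while Eef1g, Pdcd2l and Aamp stayed in 2 and Eef2, Naca, Npm1, Tsc1, Larp1, Larp4 and Ltv1 in 1.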

How the data were processed

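RNA was sequenced from 3 palmitate and 3 control libraries. RNeasy columns and a SMARTER kit for mRNA sequencing were used, per the labels' protocols. Tools named in the submitters' processing notes are Salmon 1.10.0, Trim Galore 0.6.10 and DESeq 1.42.0, with build GRCm39 and no strand setting. The deposited gene matrix holds expected counts that the authors left as whole numbers, and each library has a deposited Salmon table with expected counts, TPM and transcript lengths. Symbols and gene types came from GENCODE M21 and a table of gene names, which matched 29087 of 29370 gene identifiers; 114808 of 116224 transcripts, with 99.4% to 99.5% of the reads, matched a gene. No column was left unused (0), and 0 entries named no gene.

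The matrix was tested in R 4.3.3 with edgeR 4.0.16 (TMM, edgeR's low-count filter, robust two-sided quasi-likelihood test, Benjamini-Hochberg adjustment over 12068 genes at 0.05). Every adjusted p in the text is from this test unless a setting is named. Fold changes (log2) put palmitate over control, with SE, and CPM are on TMM-scaled library sizes. Transcript sums were fitted the same way, with transcript lengths as offsets, over 13082 genes. Alternatives were RLE, upper-quartile and family scaling, other filters, DESeq2 1.42.0, limma-voom (limma 3.58.1), the replicate block, and each library left out. Across all genes, deviations from group means correlated at 0.32, 0.21 and 0.19 for same-numbered libraries and at −0.27 to 0.09 otherwise. Over the members alone these correlations were 0.46, 0.05 and −0.52, and −0.54 to 0.59 otherwise, so no pairing by number was seen within the family. Deviations within a group cancel out, so these correlations are not independent. The labels do not say what the numbers mark, so the main fit left them out and the block was an alternative setting. Replicates differed by more than sampling noise (chi-square per gene 11.4 to 37.9).

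The members, role lists, related lists and markers were chosen with earlier results of these data known. Genes were named by a rule: called members, paralogs and the genes they copy, P-stalk genes, Rpsa, Rps6, Rpl5, Rpl11, Rps27a and Rps19bp1, the members of highest and lowest TPM, those whose call differed between tables, and up to 4 called genes of each related list; others are named as chosen later or as counts. Rps4l and Rpl37rt are annotated as pseudogenes and are not members. Of the members, 84 of 86 share a 31-base word with another gene, so how reads were divided between copies is uncertain. A result for 1 gene of the related lists is not reported here.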

Additional observations from a re-analysis of the deposited data

Results flagged for a closer look

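The 240 pseudogene and other non-coding rows with ribosomal protein names, which stand outside the family as defined, also held counts. Their summed share of gene counts was 0.283%, 0.345% and 0.307% in palmitate libraries and 0.267%, 0.239% and 0.256% in control libraries, with means of 0.312% ± 0.0313 and 0.254% ± 0.0140 (SD, n = 3 each). All palmitate libraries lay above all control libraries, and the exact two-sided permutation test gave p = 0.10, the smallest that 3 against 3 libraries allow. Of the 17 rows that passed the filter on low counts, 1 was called higher and none lower, with a median log2 fold change of 0.04 and 9 above 0. These rows share sequence with the members, and whether their counts are transcripts of their own was not tested.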

How the results depend on the processing

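Members called higher numbered 5, and 3 with RLE size factors, 11 with upper-quartile scaling, 2 scaled to the summed member counts, 3 with no filter on low counts, 9 with a minimum mean of 5 CPM, 12 with DESeq2, 16 with the replicate block, 3 in transcript sums with length offsets, 4 without offsets and 5 with limma-voom. Leaving out 1 library gave 0 to 10. Of all genes, 11.1% were called higher in the main fit, 16.5% with the replicate block and 9.24% in transcript sums with length offsets. Shares for the other settings are not given here, so counts under them cannot be set against all genes. Members called lower numbered 1, and 2 scaled to the summed member counts and 0 in both transcript sums, and 0 to 1 without 1 library. The median log2 fold change of 0.13 became −0.0093 when scaled to the summed member counts, and was 0.08 to 0.19 elsewhere. The summed share, a log2 ratio of 0.20, ran from 0.15 to 0.23. Related genes called higher numbered 5, and 0 scaled to the summed member counts, 8 with the replicate block, 3 in transcript sums with length offsets and 0 to 8 without 1 library. Those called lower numbered 9, and 4 with upper-quartile scaling and 1 to 12 without 1 library. Of 480 values of named genes, 435 kept their side of the threshold, 30 lost the call, 13 gained it, and 2 lost it with a change of sign. Those 2 were of Rpl13a (0.11 and 0.093 in transcript sums with and without length offsets, where all its transcripts are counted). Sign changes of genes not called were not counted apart, such as that of Rps23 (0.37 in the matrix and −0.07 in transcript sums with length offsets). Besides the results named in the text, the replicate block changed no call of a named member. Small common shifts of highly expressed genes depend on the scaling, and 3 libraries a group limit which of them can pass a threshold adjusted over all genes.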
